A study of Mus musculus with 37 samples.

Results

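The B cell receptor complex and its coreceptors are followed here as 9 genes, chosen by symbol from the 35885 genes of a deposited RNA sequencing table of 37 mouse libraries. They are *Cd79a*, *Cd79b*, *Cd22*, *Ms4a1*, *Cr2*, *Fcer2a*, *Blk*, *Btk* and *Blnk*, and all 9 passed the filter on low values in both tissues. The libraries came from the marrow of the femur and from the spleen of wild-type C57BL/6N mice under social defeat stress, in which a mouse meets an aggressor, once a day. In marrow there were 3 undefeated controls, 4 libraries after 1 defeat, 3 after 4 defeats, 5 after 10 defeats and 4 after 10 defeats followed by 1 week without intervention (the rested group). In spleen the same groups held 4, 2, 2, 6 and 4 libraries. No group carries a transgene or a drug in the labels, and neither the age nor the sex of the mice is given in the sources used here. Marrow cells were flushed from the bone and spleens were taken whole, so each value is an average over all cell types of the sample.

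The B cell receptor is a membrane immunoglobulin held together with the CD79a and CD79b chains, whose cytoplasmic tails are phosphorylated by Src family kinases such as BLK when antigen binds. The adaptor BLNK then gathers the kinase BTK and phospholipase C at the membrane, which starts calcium signalling. CD22 is a sialic acid binding receptor that dampens the signal, CD20 (encoded by *Ms4a1*) is a membrane protein of mature B cells, and complement receptor 2 (CD21, *Cr2*) lowers the threshold of activation. CD23 (*Fcer2a*) is the low-affinity IgE receptor of follicular B cells. The chains *Cd79a*, *Cd79b* and *Blnk* are switched on in B cell precursors of the marrow, whereas *Cr2* and *Fcer2a* appear on mature B cells, and both also mark follicular dendritic cells. *Btk* is used by myeloid cells and mast cells as well as by B cells.

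RefSeq promoters (build GRCm38.p6, 250 bases before to 50 after the annotated start) were at hand for 6 of the 9 genes: *Cr2*, *Cd79a*, *Cd22*, *Fcer2a*, *Blnk* and *Btk*. The next lines give 4 of them as examples, 3 of genes that were lower in marrow and that of *Btk*, which was not called there. Capitals mark matches, on either strand, to the octamer ATGCAAAT, to CCCNNGGG (the core bound by EBF1), to the E box CAGGTG (bound by E2A) or to GAGGAA (the core bound by PU.1), and no matches overlapped in these windows.
Cd79a: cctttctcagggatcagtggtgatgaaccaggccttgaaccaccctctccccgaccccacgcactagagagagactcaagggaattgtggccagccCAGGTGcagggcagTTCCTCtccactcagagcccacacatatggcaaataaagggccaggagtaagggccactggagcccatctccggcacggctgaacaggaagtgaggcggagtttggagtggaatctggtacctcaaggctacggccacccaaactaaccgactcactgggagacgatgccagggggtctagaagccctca
Cd22: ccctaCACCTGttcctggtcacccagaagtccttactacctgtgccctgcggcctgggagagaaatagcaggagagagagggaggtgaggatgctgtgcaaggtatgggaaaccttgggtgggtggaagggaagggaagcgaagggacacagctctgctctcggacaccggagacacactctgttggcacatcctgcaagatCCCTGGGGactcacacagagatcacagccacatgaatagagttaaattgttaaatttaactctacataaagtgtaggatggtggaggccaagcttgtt
Blnk: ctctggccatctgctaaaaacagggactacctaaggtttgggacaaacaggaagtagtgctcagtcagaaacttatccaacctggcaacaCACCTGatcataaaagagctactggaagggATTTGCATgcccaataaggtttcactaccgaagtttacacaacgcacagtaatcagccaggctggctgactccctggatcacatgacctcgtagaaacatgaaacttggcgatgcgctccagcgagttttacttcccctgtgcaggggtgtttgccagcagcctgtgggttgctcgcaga
Btk: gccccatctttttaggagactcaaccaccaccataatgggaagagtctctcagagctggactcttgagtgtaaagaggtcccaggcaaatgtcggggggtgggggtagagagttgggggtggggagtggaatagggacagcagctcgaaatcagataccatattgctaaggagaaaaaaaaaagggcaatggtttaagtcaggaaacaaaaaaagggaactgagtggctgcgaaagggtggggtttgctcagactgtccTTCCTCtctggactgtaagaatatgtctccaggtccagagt
These windows were chr7:24897247-24897546 on the plus strand and, on the minus strand, chr7:30878979-30879278, chr19:40994172-40994471 and chrX:134583091-134583390. The *Blnk* window held the octamer, which 1.74% of the 32851 promoters of this length held. The *Cd22* window held the EBF1 core, found in 13.7% of promoters. An E box was present for *Cd79a*, *Cd22* and *Blnk*, against 20.2% of promoters, and none was found in the *Btk* window. Of the windows not printed, that of *Cr2* also held an E box, and *Fcer2a* had 3 windows, of which 1 held E boxes and 2 held none of the 4 motifs. The PU.1 core, in 28.3% of promoters, was present for *Cd79a* and *Btk*. A match describes the letters of the window and says nothing of binding.

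The deposited values are abundances scaled per library by the authors, on a scale per transcript length, so levels of different genes can be set side by side. Steps between low values put the depth of a library at an estimated 3.61 to 34.9 M reads (median 11.5 M). The lowest value of any member, 0.281 for *Cr2* in a marrow library, stood for an estimated 17.3 reads. The fewest reads, an estimated 7.13, lay behind a *Fcer2a* value of 0.342 in the same library. Both estimates assume the longest transcript of the gene and a fragment of 200 bases, and shorter transcripts would give fewer reads. For *Cr2* the longest transcript has 6212 bases and the median one 987. As a check of the tissue labels, 14 neutrophil genes summed to 233 to 485 in control spleens and 57400 to 66430 in control marrow. In spleen 5 libraries stood apart, with column totals of 1539000 to 2652000 against at most 1016000 in the other 13 and haemoglobin shares of 45.4% to 58.8%. They are 4 of the 6 libraries after 10 defeats (D6, D7, D9 and D10) and 1 rested library (D2), so spleen results are given with and without them. Nothing in the labels says whether libraries with the same code come from the same animal. The limma p values rest on the spread between libraries within groups, as 1 estimate per gene shared by all groups of a fit. In spleen the groups differ in spread, as for *Cd79a* with an SD of 195 after 10 defeats and 36.4 in controls.

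In undefeated mice every gene of the complex was detected in both tissues, and 6 of 9 were higher in spleen than in marrow. *Cd79a* averaged 708 ± 36.4 in control spleen and 268 ± 60.6 in control marrow (SD, n = 4 and n = 3). *Cd79b* stood beside it, at 693 ± 57.6 and 228 ± 46.6 (SD). These signalling chains were the most abundant of the 9 in either tissue. Within a library the ratio of *Cd79b* to *Cd79a* was 0.830 to 0.895 in control marrow, where *Cd79b* was always the lower. In control spleen that ratio was 0.843 to 1.14. In control spleen *Ms4a1* followed at 219 ± 33.2 and then *Cd22* at 155 ± 33.1, whose ranges of 189 to 262 and 115 to 196 overlapped. The spleen order went on with *Cr2*, *Fcer2a*, *Blk* and *Blnk*, at 112 ± 22.0, 98.6 ± 9.04, 91.6 ± 10.8 and 77.4 ± 9.05, and ended with *Btk* at 44.3 ± 3.42. In that run each neighbour overlapped the next except *Blnk* and *Btk*. In control marrow *Cd22*, *Btk*, *Ms4a1*, *Blk* and *Blnk* formed a middle tier with means of 36.8 to 40.9 that could not be ordered. *Fcer2a* lay below it at 23.0 ± 3.72 and *Cr2* last at 5.90 ± 0.920.

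The tissues differed most for *Cr2*, with a log2 difference, spleen minus marrow, of 4.01 ± 0.48 (SE; limma, adjusted p = 3.50e-08). *Ms4a1* came next at 2.47 ± 0.45 (SE; limma, adjusted p = 3.22e-05). *Fcer2a* (2.06), *Cd22* (1.88), *Cd79b* (1.61) and *Blk* (1.23) were higher in spleen as well, with adjusted p of 0.00762 to 0.0237. The differences of *Cd79a* (1.42), *Blnk* (1.05) and *Btk* (0.13) did not pass, and the call of *Blk* was lost without marrow control C1 or C4 or spleen control C4. Of all 14513 genes, 27.1% were called higher in control spleen, against 6 of the 9 members. All log2 differences in the text are on the scale of log2(value + 1), which understates changes of low genes such as *Cr2* in marrow.

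In bone marrow, 8 of the 9 genes fell after 4 and after 10 defeats and *Btk* was not called in any marrow comparison. The signalling chains show the course. *Cd79a* had values of 239, 337 and 227 in control marrow and 216, 241, 144 and 249.8 after 1 defeat. The values were 144, 21.5 and 54.1 after 4 defeats, 27.4, 4.96, 54.7, 43.2 and 68.2 after 10 defeats and 79.3, 108, 110.0 and 132 after the week of rest. Each library after 4 or 10 defeats lay below each control, and the library with the lowest value was D6, after 10 defeats. *Cd79b* had values of 214, 279.9 and 189.8 in control marrow and 190.5, 216, 156 and 234 after 1 defeat. The values were 131, 21.7 and 54.3 after 4 defeats, 24.4, 7.24, 53.9, 44.1 and 58.0 after 10 defeats and 74.2, 86.2, 86.2 and 98.1 after the week of rest. The second chain stayed close to the first in every library, and D12 was the lowest of the 4-defeat group for both.

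**Figure D1:**
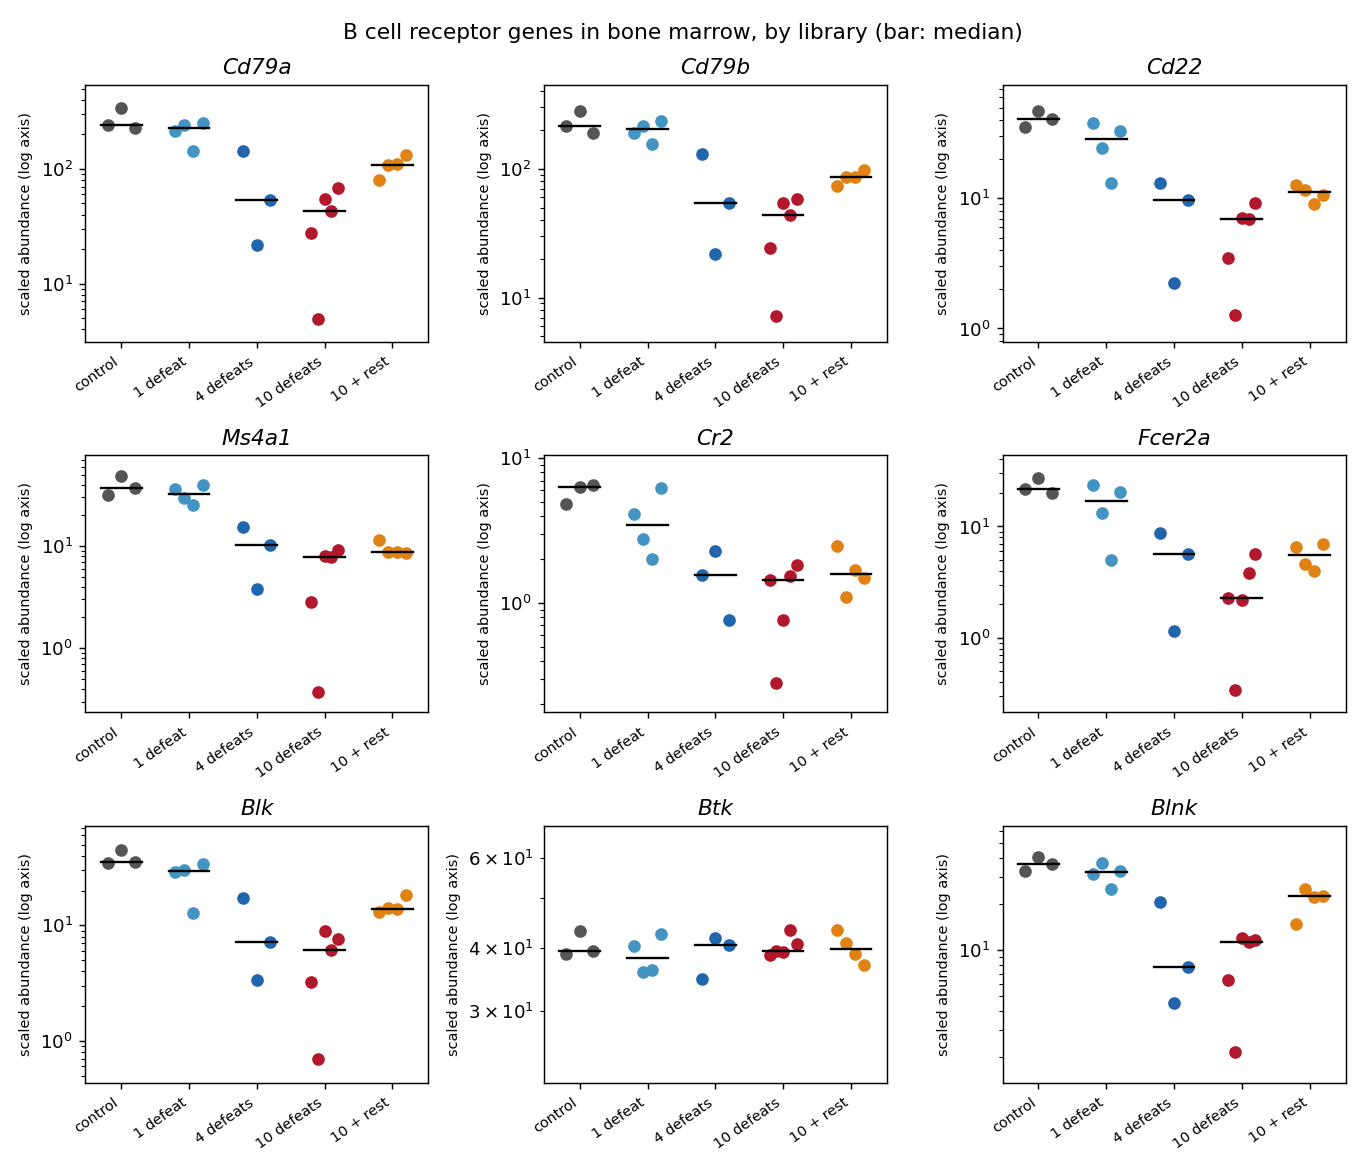
Values of the 9 genes in each marrow library (vertical log axis, scaled abundance) by group, with a bar at the group median. Of the 9 panels, 8 step down after 4 and 10 defeats and stand between 10 defeats and control after rest, while Btk stays between 34.7 and 43.3.

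Among the surface coreceptors, the inhibitory receptor *Cd22* took the same steps. *Cd22* had values of 35.3, 46.7 and 40.8 in control marrow and 37.8, 24.6, 13.2 and 33.1 after 1 defeat. The values were 13.2, 2.22 and 9.77 after 4 defeats, 3.48, 1.26, 7.09, 6.93 and 9.17 after 10 defeats and 12.6, 11.7, 9.03 and 10.7 after the week of rest. After 1 defeat the libraries spread from within the control range to well below it, and library D17 was the lowest. *Ms4a1* had values of 31.8, 48.2 and 36.9 in control marrow and 36.1, 29.2, 25.3 and 39.4 after 1 defeat. The values were 15.2, 3.79 and 10.3 after 4 defeats, 2.85, 0.375, 7.91, 7.87 and 9.20 after 10 defeats and 11.4, 8.75, 8.81 and 8.59 after the week of rest. Of its rested libraries 3 lay at 8.59 to 8.81, within the 10-defeat range, and D1 lay above that range at 11.4. For the IgE receptor *Fcer2a* the control values were 21.7, 27.1 and 20.0, the 1-defeat values 23.8, 13.1, 4.96 and 20.4, the 4-defeat values 8.76, 1.16 and 5.62, the 10-defeat values 2.26, 0.342, 2.17, 3.78 and 5.66 and the rested values 6.53, 4.63, 3.98 and 6.94. The complement receptor *Cr2*, the rarest member, had 4.85, 6.33 and 6.53 in controls, 4.13, 2.78, 2.02 and 6.23 after 1 defeat, 1.56, 2.29 and 0.761 after 4, 1.44, 0.281, 0.760, 1.53 and 1.83 after 10 and 2.47, 1.10, 1.69 and 1.49 after rest. For both genes no library after 4 or 10 defeats or after rest reached the lowest control.

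Inside the cell, the Src family kinase *Blk* and the adaptor *Blnk* went down and the kinase *Btk* stayed within a narrow range. *Blk* had values of 34.9, 45.4 and 35.4 in control marrow and 29.1, 30.2, 12.9 and 33.7 after 1 defeat. The values were 17.4, 3.38 and 7.14 after 4 defeats, 3.23, 0.691, 8.91, 6.09 and 7.58 after 10 defeats and 13.2, 14.1, 13.7 and 18.4 after the week of rest. Its 1-defeat libraries all lay below the controls, the nearest at 33.7 and the furthest, D17, at 12.9. *Blnk* had values of 33.0, 40.7 and 36.8 in control marrow and 31.6, 37.5, 25.3 and 33.0 after 1 defeat. The values were 20.8, 4.55 and 7.79 after 4 defeats, 6.42, 2.17, 12.1, 11.4 and 11.7 after 10 defeats and 14.8, 25.0, 22.3 and 22.7 after the week of rest. *Blnk* averaged 8.75 ± 4.34 after 10 defeats and 36.8 ± 3.84 in controls (SD), and its rested values lay between those of the 10-defeat and control libraries without overlap. *Btk* had values of 38.8, 43.2 and 39.4 in control marrow and 40.3, 35.8, 36.1 and 42.5 after 1 defeat. The values were 34.7, 41.8 and 40.5 after 4 defeats, 38.7, 39.4, 39.2, 43.3 and 40.6 after 10 defeats and 43.2, 40.8, 38.8 and 37.01 after the week of rest. Every marrow library thus lay between 34.7 and 43.3 for *Btk*, and the 5 groups overlapped.

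After 10 defeats the log2 fold change against control was furthest from 0 for *Cd79a*, at -3.09 ± 0.66 (SE; limma, adjusted p = 0.00198). *Ms4a1* (-2.89 ± 0.52), *Blk* (-2.88 ± 0.51), *Cd79b* (-2.85 ± 0.56), *Cd22* (-2.84 ± 0.49) and *Fcer2a* (-2.81 ± 0.53) were close to it. Beside these errors the order of these genes is not resolved. The scale also shrinks the changes of the lower genes among them. Group means fell from 23.0 to 2.84 for *Fcer2a* and from 268 to 39.7 for *Cd79a*. *Blnk* (-2.12 ± 0.43) and *Cr2* (-1.72 ± 0.29) had smaller log2 fold changes, and over these 8 genes the adjusted p ran from 0.000337 to 0.00198. The interval of *Btk* was -0.19 to 0.17 around -0.01, and its sign depended on the scaling, at 0.10 after median-ratio rescaling. Genes called lower made up 28.3% of the 12442 tested, and the median log2 fold change was -2.84 over the 9 members and -0.13 over all genes. For 8 of 9 members every 10-defeat library lay below every control library, as it did for 29.8% of all genes. The split of calls over all genes depended on the scaling, with 61.8% of them lower as deposited and 48.9% after median-ratio rescaling, while the 8 members were called under every scaling. In bulk tissue, fewer B cells and less RNA per B cell cannot be told apart.

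After 4 defeats the same 8 genes were lower, with log2 fold changes from -2.40 for *Cd22* to -1.48 for *Cr2* and adjusted p of 0.00646 to 0.0437 (limma). Here 13% of all genes were called lower. All 8 members had no overlap with the controls, but the share of all genes without overlap was not counted for this comparison. Of all calls 64.7% were lower as deposited and 42.6% after quantile normalization, and the 8 members were called under both, against 7 after median-ratio rescaling and 6 at equal totals. The count rested on single libraries: it was 1 without D12, 3 without D14, and 2 without control C2 or without control C4, although each fold change kept its sign. Between 10 and 4 defeats no member was called (smallest adjusted p 0.387, none at an unadjusted p under 0.05, 2.44% of all genes called), and intervals such as -2.25 to 0.53 for *Cd79a* leave the size of any further step unresolved. After 1 defeat no member passed either. The smallest adjusted p was 0.904, none had an unadjusted p under 0.05, and 0.00804% of genes (a single gene) were called. Log2 fold changes ran from -0.71 for *Fcer2a* to -0.07 for *Btk*. Set directly against 1 defeat, 10 defeats gave 8 lower members, from -2.75 for *Cd79a* to -1.12 for *Cr2*, where 21.3% of all genes were called lower.

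Other receptors of the B cell surface moved with the complex in marrow. Of 19 tested, 14 were lower and 1 higher after 10 defeats, with a median log2 fold change of -1.62, where 28.3% of all genes were lower. They included the chemokine receptor *Cxcr5* (-1.88 ± 0.24), the BAFF receptor *Tnfrsf13c* (-2.78 ± 0.43), *Fcrl1* (-1.62 ± 0.24) and the inhibitory receptor *Btla* (-1.68 ± 0.26). Of 25 signalling proteins 9 were lower and 5 were higher, a mixed result, where 28.3% of all genes were lower and 17.5% higher. Their median of -0.14 was near that of all genes. The lower ones included the adaptor *Bank1* (-1.53 ± 0.23), the exchange factor *Rasgrp3* (-1.25 ± 0.19) and the adaptor *Pik3ap1* (-0.59 ± 0.11). After 4 defeats 13 of 19 receptors were lower and, of the 25 signalling proteins, 11 were lower and 1 higher. Of all genes 13% were lower and 7.07% higher.

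Markers of other cells moved in the same comparison. Of 14 neutrophil genes 13 were higher after 10 defeats, against 17.5% of all genes, with summed values of 137900 to 257900 after 10 defeats and 57400 to 66430 in controls. Of 11 T cell genes 9 were lower, with sums of 19 to 52 after 10 defeats and 88 to 100 in controls. For this and the next lists, 28.3% of all genes were lower. All 7 genes of a B lineage list, of which 2 are also among the surface receptors above, were lower, among them the transcription factors *Spib* (-3.09 ± 0.55), *Pou2af1* (-2.52 ± 0.49) and *Ebf1* (-2.05 ± 0.41). They summed to 12 to 140 after 10 defeats and 508 to 721 in controls. Of 9 B precursor genes 8 were lower, with sums of 25 to 103 and 281 to 368, and of 12 erythroid genes 8 were lower. Of 11 monocyte and macrophage genes tested 4 were higher and 2 lower, where 17.5% of all genes were higher. Sums over 12 such genes were 1749 to 2429 after 10 defeats and 1009 to 1050 in controls. Of 7 mast cell and basophil genes 1 was higher and 2 were lower, with overlapping sums of 197 to 374 and 282 to 297. None of the genes on these lists was at 0 in every library of either group. Their part in the values of the 9 genes was not tested.

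After the week of rest, *Cd79a*, *Blk* and *Blnk* stood higher in marrow than directly after 10 defeats. Their log2 differences, rested minus 10 defeats, were 1.78 ± 0.60 (SE; limma, adjusted p = 0.0458), 1.56 ± 0.47 (adjusted p = 0.0284) and 1.34 ± 0.39 (adjusted p = 0.026). Of all genes 13.8% were called higher. *Cd79b* narrowly missed at 1.47 ± 0.51 (adjusted p = 0.0523), although its rested libraries all exceeded the 10-defeat libraries. The differences of *Cd22* (1.04), *Ms4a1* (0.96), *Fcer2a* (0.92) and *Cr2* (0.34) did not pass, and all 4 overlapped the 10-defeat group. The count of 3 was unstable: it was 0 when rested D2, D3 or D8 was left out, 1 without D6 of the 10-defeat group, and 0 when only these groups were fitted. Among precursor genes 7 of 9 were higher after rest, including the recombinase gene *Rag2* (1.04 ± 0.25) and the transcription factor *Bach2* (1.58 ± 0.34). Of the surface receptors 3 of 19 were higher (*Cd81*, *Fcrla* and *Tnfrsf13c*), and of the signalling proteins 3 were higher (among them *Fyn* and *Pik3ap1*) and 2 lower (*Prkcb* and *Vav1*), where 7.91% of all genes were lower.

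Rested marrow was not called different from control for any gene, neither for the 9 members nor for the 12442 tested (0%), although 1768 genes and 6 members had an unadjusted p under 0.05 (limma). The rested libraries lay wholly below the controls for 8 of 9 members, but the share of all genes for which they did so was not counted. *Ms4a1* had the largest log2 difference, -1.93 ± 0.55 with an adjusted p of 0.172, followed by *Fcer2a* at -1.89 ± 0.56 and *Cd22* at -1.81 ± 0.51. *Blnk* was nearest to its control level among the 8, at -0.79 ± 0.45, and the interval of *Btk* was -0.21 to 0.17. Fitted on the rested and control libraries alone, 8 members were called lower, as were 2.31% of all genes.

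In spleen all 9 genes were lower after 10 defeats, by very unequal amounts, and the libraries of that group spread widely. *Cd79a* was 692, 665, 744 and 731 in controls, 428 and 447 after 1 defeat and 189 and 553 after 4 defeats. After 10 defeats it was 44.1 at the lowest, 189.7 at the median and 560.2 at the highest, and 448, 206, 486 and 546 after rest. All 10-defeat libraries lay below all controls, and the 2 of them that did not stand apart, D5 and D4, had 343 and 560.2. *Cd79b* was 702, 756, 697 and 617 in controls, 142 at the lowest, 315 at the median and 506 at the highest after 10 defeats and 582, 442, 465 and 536 after rest. It also lay below the controls throughout, but its lowest library kept a larger part of the control level than that of *Cd79a*.

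**Figure D2:**
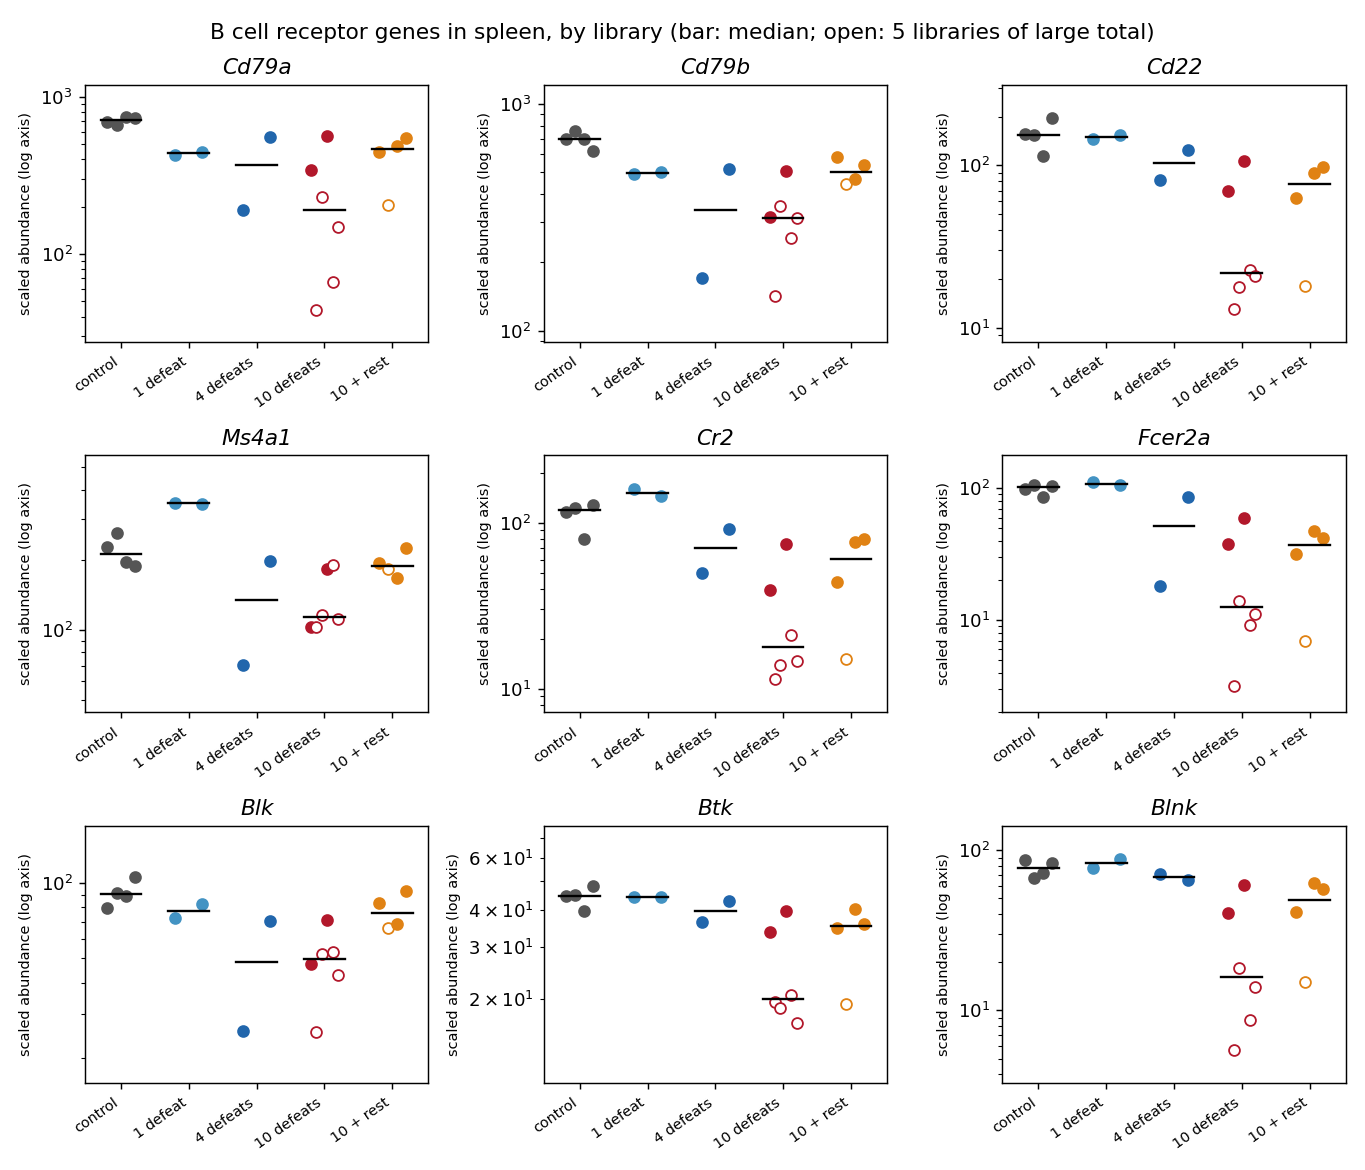
Values of the 9 genes in each spleen library (vertical log axis, scaled abundance) by group, with a bar at the group median; open symbols are the 5 libraries of large total. The 10-defeat group is the widest in most panels, and its lowest points are open symbols, as for Cd79a at 44.1.

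Of the coreceptors, *Cd22* had 155, 153, 115 and 196 in controls, 13.1 at the lowest, 21.7 at the median and 107 at the highest after 10 defeats and 62.6, 18.1, 90.1 and 98.2 after rest. *Cr2* had 117, 123, 79.4 and 128 in controls, 11.5 at the lowest, 17.9 at the median and 74.3 at the highest after 10 defeats and 43.9, 15.1, 76.7 and 79.8 after rest. Both fell below the control range in every 10-defeat library, and rested library D2 was as low as those. *Fcer2a* had 99.4, 106, 85.7 and 104 in controls, 3.19 at the lowest, 12.5 at the median and 59.8 at the highest after 10 defeats and 31.9, 6.96, 47.1 and 42.2 after rest. *Ms4a1* behaved otherwise, with 228, 262, 196 and 189 in controls, 352 and 348 after 1 defeat, 102 at the lowest, 114 at the median and 190.4 at the highest after 10 defeats and 195, 183, 167 and 225 after rest. Its 10-defeat libraries overlapped the controls by a single library, D9, and both 1-defeat libraries exceeded every other spleen library.

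*Blk* had 79.9, 91.7, 88.8 and 106 in controls, 25.4 at the lowest, 49.7 at the median and 71.1 at the highest after 10 defeats and 83.5, 66.0, 68.4 and 92.8 after rest. None of the 10-defeat libraries reached the lowest control, and the rested libraries overlapped the controls. *Blnk* had 86.7, 67.3, 72.5 and 83.2 in controls, 5.64 at the lowest, 16.2 at the median and 60.5 at the highest after 10 defeats and 41.2, 15.1, 62.9 and 57.0 after rest. *Btk* had 44.6, 44.7, 39.8 and 48.1 in controls, 33.7 and 39.6 in D5 and D4 after 10 defeats, 19.4, 18.6, 20.5 and 16.6 in the 4 libraries of that group that stood apart, and 34.6, 19.1, 40.3 and 35.7 after rest. For *Btk* the low values were therefore those of the 5 libraries of large total, since rested D2 was the low one of its group.

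After 10 defeats the log2 fold changes in spleen were largest for *Fcer2a* (-2.61 ± 0.66 (SE; limma, adjusted p = 0.00392)), *Cd22* (-2.27 ± 0.54), *Cr2* (-2.20 ± 0.50), *Cd79a* (-2.10 ± 0.57) and *Blnk* (-2.03 ± 0.52). They were smaller for *Cd79b* (-1.23 ± 0.32), *Blk* (-0.95 ± 0.27), *Btk* (-0.89 ± 0.24) and *Ms4a1* (-0.74 ± 0.27), and the adjusted p of the 9 ran from 0.00219 to 0.0252. This was a broad shift: 41.9% of the 13945 genes were called lower and the median log2 fold change of all genes was -0.36, against -2.03 over the 9 members. For 8 of 9 members the groups did not overlap, against 25.8% of all genes. The share of calls that were lower was 71.4% as deposited, 53.5% after quantile normalization, 49.7% after median-ratio rescaling and 89.8% at equal totals. The median of all genes was -0.03 after median-ratio rescaling and -0.86 at equal totals. After median-ratio rescaling 7 members were called lower and *Ms4a1* (-0.30) and *Blk* (-0.52) were not.

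Without the 5 libraries of large total, 3 members were lower after 10 defeats, where 14.7% of all genes were. These were *Cr2* (-1.01, adjusted p = 0.0445), *Cd22* (-0.81, adjusted p = 0.0421) and *Blnk* (-0.62, adjusted p = 0.0418). The other 6 kept a negative sign, from -1.03 for *Fcer2a* to -0.27 for *Btk*, with only D5 and D4 left in that group. The 5 libraries also differed in how values depended on transcript length, with slopes of -0.45 to -0.37 on the log2 scale per doubling of length, against -0.21 to 0.13 in the other 13. The call of *Ms4a1* in the full set was also lost when control C1 or C2 or library D6 was left out. Removing each library's length and GC trend left 9 members lower, with -2.07 for *Cd79a* and -0.91 for *Btk*.

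Of 20 other surface receptors 17 were lower (median -1.33), and 11 without the 5 libraries, where 41.9% and 14.7% of all genes were lower. They included the inhibitory Fc receptor *Fcgr2b* (-1.20 ± 0.21), the phosphatase CD45 (*Ptprc*, -1.62 ± 0.28), *Tnfrsf13c* (-1.25 ± 0.23) and *Cd72* (-1.94 ± 0.38). Of 25 signalling proteins 23 were lower (median -1.75), and 15 without the 5 libraries. Protein kinase C beta (*Prkcb*, -2.66 ± 0.41), the phosphatase SHP-1 (*Ptpn6*, -1.51 ± 0.33) and *Vav3* (-0.80 ± 0.16) were among them. Of 7 follicular dendritic cell genes tested 6 were lower (3 without the 5 libraries), with sums over 8 genes of 166 to 807 after 10 defeats and 942 to 1146 in controls. Among them was the chemokine *Cxcl13* (-1.39 ± 0.37). In the same comparison 12 of 14 neutrophil genes were higher, against 16.8% of all genes (8.38% without the 5 libraries), with sums of 1312 to 90590 after 10 defeats and 233 to 485 in controls. Of 12 erythroid genes 11 were higher (7 without the 5 libraries), with sums of 80040 to 1242000 and 88860 to 204500, and 11 of 12 T cell genes were lower. None of these genes was at 0 in every library of a group, and their part in the fall of the 9 members was not tested.

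Fewer defeats and the week of rest gave no called member in spleen. After 1 defeat the share of genes called was 0.688% and no member had an unadjusted p under 0.05, with 0.69 ± 0.36 for *Ms4a1* and -0.69 ± 0.76 for *Cd79a* at the ends. The 5 groups shared 1 estimate of the spread, which the 5 libraries of large total entered. Without them 1168 of 13945 genes were called higher and 572 lower after 1 defeat, and 143 and 84 after 4 defeats. Few calls here are thus no sign that few genes changed. Both 1-defeat libraries had a steep GC slope, of -0.56 and -0.55 on the log2 scale per 10 percentage points of GC content, and with length and GC trends removed *Ms4a1* stood at 0.14. After 4 defeats 0.043% of genes were called and 3 members had an unadjusted p under 0.05. The 2 libraries disagreed, since D13 had 189 and D14 553 for *Cd79a*, and without D14 *Cd79b*, *Blk* and *Ms4a1* were called lower, with D13 alone in the group and assumed to vary like the other groups. After rest 7.26% of genes differed from control, and 3 members had an unadjusted p under 0.05. *Fcer2a* was the furthest from control at -1.87 ± 0.72 (adjusted p = 0.107) and *Ms4a1* the nearest at -0.18 ± 0.29. Without the 5 libraries of large total *Cd22* was called lower, at -0.88, where 10.7% of genes were.

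No member was called between rested and 10-defeat spleens, where 0.567% of genes were called and 4 members had an unadjusted p under 0.05. All 9 differences were positive, from 0.40 for *Btk* to 1.26 for *Cd79a*. Without D4, the 10-defeat library with the highest *Cd79a*, 4 members (*Cd79a*, *Cd79b*, *Blk* and *Blnk*) were called higher after rest. Against 1 defeat, 10 defeats left 6 members lower (*Cd22*, *Ms4a1*, *Cr2*, *Fcer2a*, *Btk* and *Blnk*), where 37.4% of genes were. *Fcer2a* had the largest difference at -2.75 ± 0.83. Over all genes 72.5% of these calls were lower as deposited and 47.6% after median-ratio rescaling. The count was 2 without D15 or without D16, the only 1-defeat libraries, and 3 without the 5 libraries of large total, where 27% of genes were lower. Against 4 defeats no member was called, 15.3% of genes were, and 4 members had an unadjusted p under 0.05. Members called numbered 3 without D5 and 4 without D4 of the 10-defeat group.

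The effect of 10 defeats differed between the tissues for 4 members. For *Ms4a1* the log2 fold change was -0.74 in spleen and -2.89 in marrow, a difference, spleen minus marrow, of 2.15 ± 0.57 (SE; limma, adjusted p = 0.00361). *Blk* differed by 1.93 ± 0.57 (adjusted p = 0.00772) and *Cd79b* by 1.62 ± 0.63 (adjusted p = 0.0381), so all 3 fell by less in spleen. *Btk* differed in the other direction, by -0.88 ± 0.27 (adjusted p = 0.01), with log2 fold changes of -0.89 in spleen and -0.01 in marrow. Of all genes 16.1% were called with a positive and 27% with a negative difference. The positive differences of *Ms4a1* and *Blk* were at 2.23 and 2.24 without the 5 spleen libraries, and *Cd79a*, *Cd22* and *Blnk* then also passed, where 14.2% of genes had a called positive difference. The difference of *Btk* was -0.26 without them and was no longer called. The call of *Cd79b* was lost when any of 9 libraries was left out (in marrow D5, D6 and controls C1 and C2, in spleen D4, D7 and controls C1, C3 and C4). At equal totals *Btk* alone passed, at -1.53, where the median of all genes moved to -0.68 and 82.2% of all calls were negative, against 62.7% as deposited. Differences of *Cd79a* (0.99), *Cd22* (0.58), *Fcer2a* (0.20), *Blnk* (0.09) and *Cr2* (-0.48) did not pass, with intervals as wide as -0.80 to 2.78 for *Cd79a*. For the rested effect no member differed between tissues (3.65% of genes called; 1 member, *Ms4a1*, at an unadjusted p under 0.05). For the step between 10 defeats and rest none did either (10.2% of genes called, no member at an unadjusted p under 0.05).

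**Figure D3:**
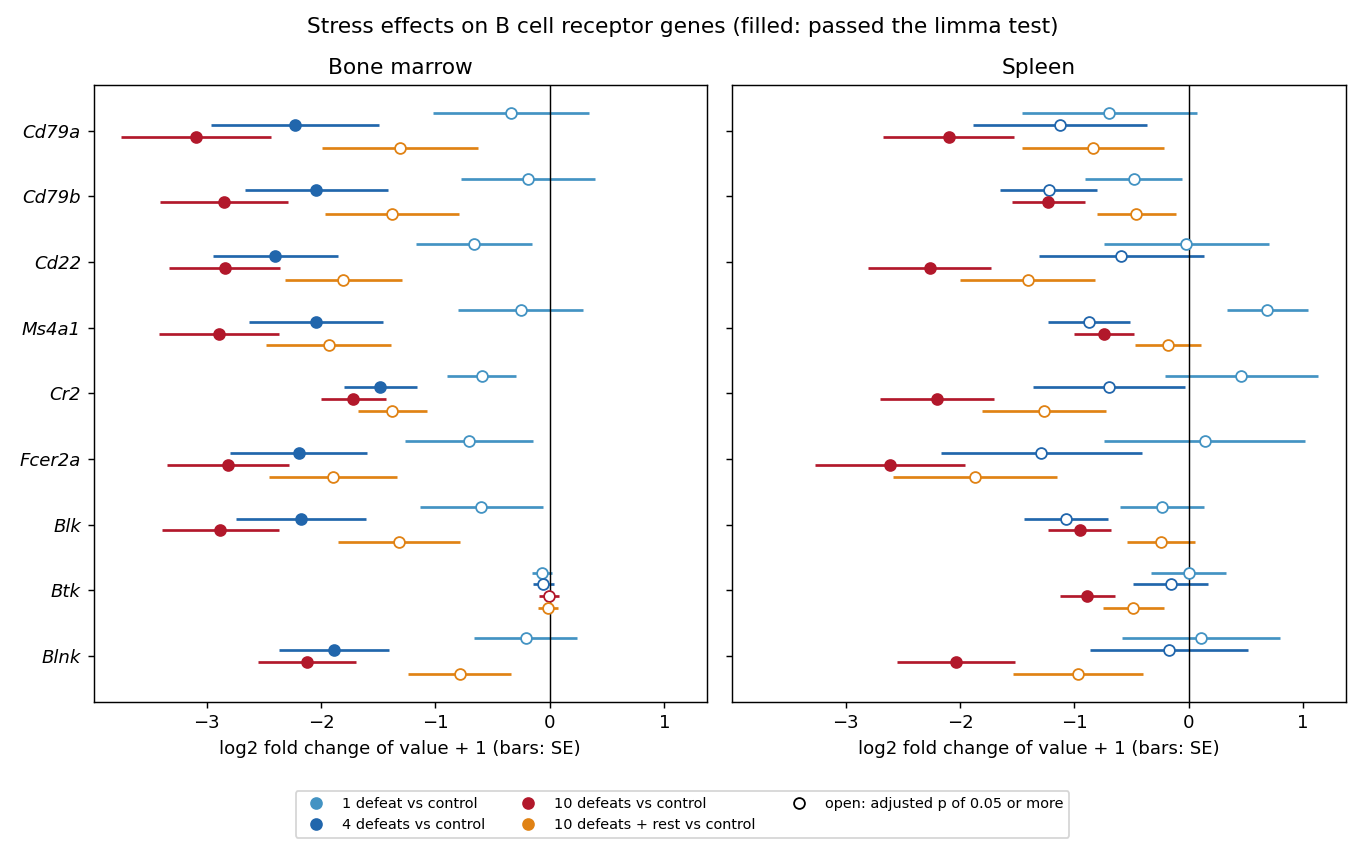
Log2 fold changes against control with standard errors (horizontal axis, log2 of value + 1) for the 9 genes after 1, 4 and 10 defeats and after rest, in marrow and spleen; filled symbols passed an adjusted p of 0.05. In marrow 8 genes lie to the left of 0 after 4 and 10 defeats and Btk lies at 0, while in spleen all 9 lie to the left after 10 defeats.

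Set against *Cd79a* of the same library, *Cd79b* and *Ms4a1* in marrow kept proportions after 10 defeats that overlapped those of controls. The ratio of *Cd79b* to *Cd79a* was 0.850 to 1.46 after 10 defeats and 0.830 to 0.895 in controls. That of *Ms4a1* was 0.0756 to 0.182 after 10 defeats and 0.133 to 0.163 in controls. The adaptor *Blnk* stood higher relative to *Cd79a*, at 0.172 to 0.438 after 10 defeats against 0.120 to 0.162 in controls, and *Btk* at 0.596 to 7.94 against 0.128 to 0.174. Neither pair of groups overlapped. Tests were run on the difference of log2(value + 1), member minus *Cd79a*, which pulls low values together. In library D6 the *Ms4a1* ratio of 0.0756 was the lowest of the 10-defeat group, while that difference, -2.12, was the highest. Between 10 defeats and control the difference moved by 0.97 ± 0.28 for *Blnk* and 3.08 ± 0.64 for *Btk* (SE), each with an exact two-sided permutation p of 0.0357, the smallest that 5 against 3 libraries allow. In rested marrow the ratio of *Ms4a1* was 0.0649 to 0.144 and that of *Blnk* 0.172 to 0.232. In spleen after 10 defeats the ratio of *Cd79b* reached 3.84 and that of *Ms4a1* 2.85, against at most 1.14 and 0.394 in controls, and both maxima came from libraries of large total. The ratio of *Fcer2a* in spleen was 0.0338 to 0.0971 after rest and 0.115 to 0.159 in controls, and the log2 difference moved by -1.03 ± 0.31 (SE; exact two-sided permutation p = 0.0286). That of *Btk* in spleen was 0.0707 to 0.440 after 10 defeats and 0.0534 to 0.0673 in controls, and the log2 difference moved by 1.21 ± 0.45 (SE; exact two-sided permutation p = 0.00952). Of the 48 such differences tested, over 8 members and 6 comparisons, 9 had an unadjusted p under 0.05 and none passed after Benjamini-Hochberg adjustment over the 48 (smallest adjusted p 0.179, exact two-sided permutation tests). Group sizes bound these p values from below, and none of the 8 tests of rested against control marrow could go under a permutation p of 0.0571. The adjusted tests therefore cannot decide whether members moved unlike *Cd79a*.

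**Figure D4:**
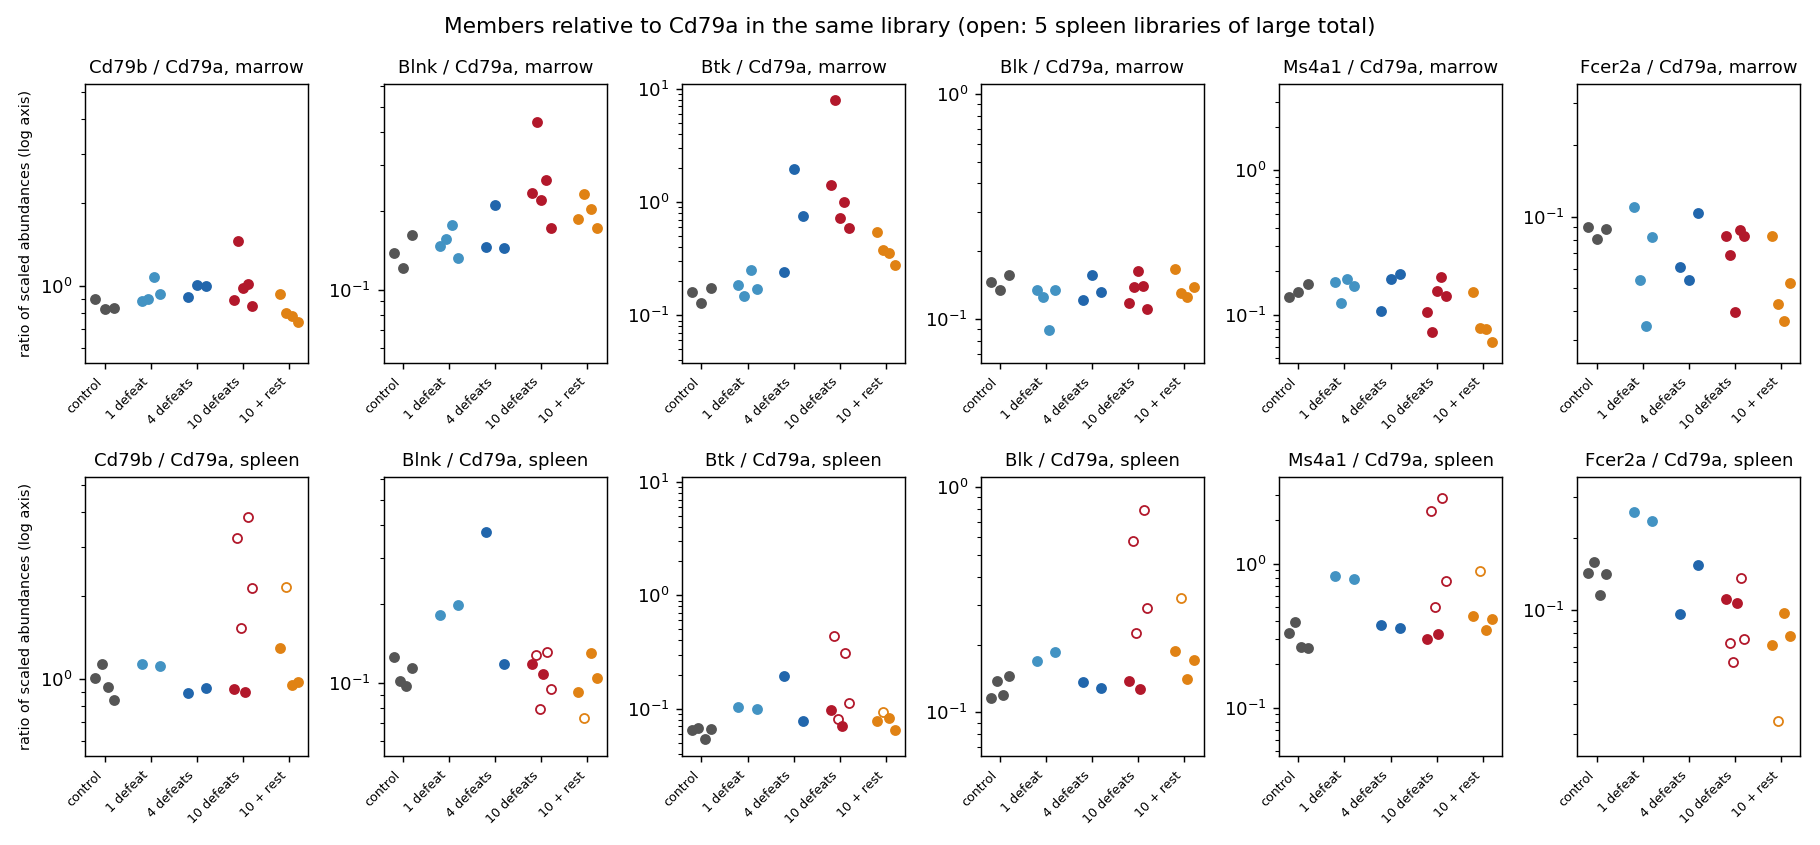
Ratio of 6 members (Cd79b, Blnk, Btk, Blk, Ms4a1 and Fcer2a) to Cd79a in the same library (vertical log axis) by group, in marrow (upper row) and spleen (lower row), with 1 point per library and open symbols for the 5 spleen libraries of large total. In marrow the points of Btk move up after 4 and 10 defeats, to 7.94 at the highest, while those of Cd79b stay between 0.741 and 1.46.

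Genes outside the complex with the most similar course were ranked by Pearson r with the mean of the 9 members' standardised values, as a description over libraries that share their groups. Across the 19 marrow libraries the closest included *Tnfrsf13c* (r = 0.981), *Myo1e* (0.980), *Ablim1*, *Scd1*, *Spib*, *Ralgps2*, *Snn*, *Gimap6* and *Gramd3* (0.971). Across the 18 spleen libraries they included *Arhgef3* (r = 0.986), *Icosl*, *Btg1*, *Arl4c*, *Ciita*, *Gpr132*, *Cyb561a3*, *S1pr1* and *Rubcnl* (0.980). *Btk* had its own nearest genes in marrow, *Arhgef11* (r = 0.862), *Iffo2*, *Slc44a2*, *Map4k4* and *Slc66a1* (0.788). The other 8 members were correlated with each other at 0.722 to 0.994 in marrow and with *Btk* at -0.165 to 0.224. In spleen the 8 members were correlated with each other at 0.456 to 0.983 and with *Btk* at 0.520 to 0.981.

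By position in GRCm38 with GENCODE M21 names, all 9 are protein-coding genes. *Cd79a* lies at chr7:24897381-24902197 on the plus strand and the other 8 on the minus strand. *Cd22* lies at chr7:30865402-30880342 on the chromosome of *Cd79a*, and *Ms4a1* (chr19:11249675-11266241) and *Blnk* (chr19:40928927-40994535) share another chromosome. *Cd79b* lies at chr11:106311341-106314762, *Cr2* at chr1:195136811-195176716, *Fcer2a* at chr8:3681737-3694175, *Blk* at chr14:63372836-63417037 and *Btk* at chrX:134542336-134583570. Values are per gene, so exons and isoforms, such as the complement receptor 1 form that mouse *Cr2* also gives, were not resolved.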

How the data were processed

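RNA from femoral marrow cells and spleen was sequenced as polyadenylated, stranded libraries (19 marrow, 18 spleen), per the labels' protocols. The deposited values are a signal per gene and library, abundances scaled by the authors, with totals of 657900 to 2652000. The tools were kallisto 0.46.1 and sleuth with the build GRCm38, per the submitters' processing notes, which give no roles. The exact scaling and read counts are not given in the sources used here. A test of normalized values therefore replaced the planned count test. Values times transcript length came in whole steps, with 57.2% to 73.8% of low values within 0.1 of a whole read, which gave the depth estimates. GENCODE M21 held 99.3% of gene identifiers. No columns were identical, and the highest correlation between libraries was 0.991.

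Log2(value + 1) was fitted with limma 3.58.1 in R 4.3.3 (trended, robust prior), the 5 groups of a tissue in 1 model and all 37 libraries for contrasts between tissues. Genes entered a test where the number of libraries with a value of 1 or more was no smaller than the smallest group, which left 12442 in marrow, 13945 in spleen and 14513 in both. Benjamini-Hochberg adjustment ran over all genes of a comparison, with a threshold of 0.05. The test was also run on simulated data with the same spread in every group, so that run cannot speak for groups of unequal spread, as in spleen. Ratios to *Cd79a* are described only; differences of log2(value + 1) from *Cd79a* in a library were compared by exact two-sided permutation tests (scipy 1.17.1). Named genes were all 9 members, up to 4 genes with the smallest p of each list of other surface receptors (20 genes), signalling proteins (25) and cell type markers, and the genes of most similar course. Members and lists were chosen with earlier results of these data known. Alternatives were quantile, median-ratio and total rescaling, no filter, a pseudocount of 0.1, fits of only the groups compared, each library left out and a block for shared library codes. Leaving out 5 spleen libraries, whose totals exceeded 1.5 times the highest spleen control, and removing length and GC trends were chosen after seeing the data. Promoters came from RefSeq. A few genes of these lists are counted but not reported by name here.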

Additional observations from a re-analysis of the deposited data

Results flagged for a closer look

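Of 54 sets of values (9 genes in the 6 groups of 4 to 6 libraries) examined for a library far from the rest, 2 held one, where chance gives about 1 in 20. *Ms4a1* in rested marrow library D1 was 11.4, with the other 3 rested libraries at 8.59 to 8.81. *Blk* in 1-defeat marrow library D17 was 12.9, with the other 3 at 29.1 to 33.7. D17 was also the lowest of its group for the other members except *Btk*, and its GC slope of -0.28 on the log2 scale per 10 percentage points was the lowest of the marrow libraries. The log2 fold change of *Blk* after 1 defeat was -0.60 both as deposited and with length and GC trends removed.

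The effect of 10 defeats differed between spleen and marrow for 4 of the 9 genes (limma, interaction). The log2 differences, spleen minus marrow, were 1.62 for *Cd79b*, 2.15 for *Ms4a1*, 1.93 for *Blk* and -0.88 for *Btk*, with adjusted p of 0.0381, 0.00361, 0.00772 and 0.01. The call of *Btk* was lost without the spleen libraries of large total, and that of *Cd79b* when any of several single libraries was left out. At equal totals *Btk* alone passed. The 4 spleen libraries of large total sit in the 10-defeat group, and the part of their composition in these differences was not tested beyond the values without them.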

How the results depend on the processing

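Of 3266 values of single genes under an alternative, 3126 stayed called or stayed uncalled, 98 lost and 42 gained a call, and none reversed a called sign. Among the 3126, 117 that were not called changed sign. In marrow the 8 lower genes after 10 defeats, against control or 1 defeat, were called under every alternative run. Leaving out single libraries gave counts of members called of 1 to 8 for 4 defeats against control, 0 to 4 for rested against 10 defeats in marrow, and 5 to 6 between control tissues. In spleen such counts were 0 to 3 for 4 defeats against control, 8 to 9 for 10 defeats against control, 2 to 9 for 10 defeats against 1, 0 to 4 against 4 defeats and 0 to 4 for rested against 10 defeats. Fitting only the groups compared gave 8 for rested against control marrow, 0 for rested against 10 defeats in marrow and 2 for 1 defeat in spleen. Quantile normalization gave 1 for rested against control marrow. Equal totals gave 1 for 10 against 4 defeats in spleen and 1 for the tissue difference of the 10-defeat effect. Without the 5 spleen libraries the counts were 3 for 10 defeats against control, 1 for rested against control, 3 for 10 defeats against 1 and 6 for the tissue difference. The causes were not tested. As a pairing check, libraries of both tissues with the same code deviated from their group means with r of -0.204 to 0.350 across genes. Taking the code as a replicate block gave a correlation of 0.0113, 6 members called between control tissues and 4 for the 10-defeat difference, the same counts as without the block. Where a fit left 1 library in a group, that library was assumed to vary like the other groups. With the longest transcript of each gene assumed, depth limits *Fcer2a* and *Ms4a1* in the lowest marrow library most, at an estimated 7.13 and 11.03 reads.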

Other observations

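Genes of B cell subsets and of antibody-secreting cells gave a mixed picture beside the 9 members. After 10 defeats in marrow, 4 of 6 follicular B cell genes were lower and 1 was higher. The lower ones included *Ighd* (-3.34 ± 0.76, also on the receptor list) and the chemokine receptor *Ccr7* (-1.83 ± 0.33). Of 8 marginal zone B cell genes 4 were lower and 3 higher, and of 5 plasma cell genes tested 3 were lower, with *Irf4* at -1.99 ± 0.34, and *Xbp1* was higher (0.61 ± 0.16). Of 6 germinal centre genes tested 1 was lower and 3 were higher. After the week of rest 4 of the 5 plasma cell genes stood higher than after 10 defeats, including *Jchain* (0.78 ± 0.25), which links antibody chains, and *Sdc1* (0.87 ± 0.16). These counts stand against 28.3% of all genes lower and 17.5% higher after 10 defeats and 13.8% higher after rest.

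In spleen after 10 defeats 5 of 6 follicular B cell genes were lower (6 without the 5 libraries of large total), as were 4 of 8 marginal zone genes (0 without them), 4 of 7 germinal centre genes (2 without them) and 2 of 7 plasma cell genes (0 without them). Of all genes 41.9% were lower, and 14.7% without the 5 libraries. *Ighd* (-2.51 ± 0.58), *Icosl* (-2.07 ± 0.42) and *Klf2* (-2.14 ± 0.46) were among the follicular genes. Of 8 plasmacytoid dendritic cell genes 7 were lower in marrow and 6 in spleen (2 without the 5 libraries).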
